A study of Mus musculus with 6 samples.

Results

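Genes of cholesterol and fatty acid synthesis were followed in femoral bone marrow of mice aged 6 to 8 weeks. There were 3 wild types, named WT 1 to WT 3, and 3 P2rx7 knockouts, named A, B and C, each with 1 RNA-seq library of flushed marrow. The 29 genes were taken by symbol from the 55291 genes of the table, and all 29 were found. All 29 also passed the filter on low counts and are among the 15478 genes tested. P2rX7 is a channel opened by extracellular ATP, and the series asks what its loss does to bone. The labels give no strain, sex, exon lacking from the allele or way in which it was made.

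Cells make cholesterol from acetyl-CoA through mevalonate, squalene and lanosterol, and they make fatty acids from the same precursor through malonyl-CoA. Both routes are controlled by the sterol regulatory element binding proteins, SREBPs, which are held in the endoplasmic reticulum by Scap and the Insig proteins when sterols are plentiful and are released to activate the genes of synthesis when sterols are scarce. In marrow these routes serve membrane growth in dividing cells and lipid storage in marrow adipocytes.

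Libraries held 18716704 to 23575652 counts. P2rx7 itself was at 60.5, 60.4 and 62.7 CPM (counts scaled to library size) in WT 1, 2 and 3, against 39.4, 38.4 and 37.5 CPM in knockouts A, B and C, so it was lower in each knockout and not lost (adjusted p = 0.0109, edgeR). Counts over the whole gene do not check for a deletion of part of it. Defining genes of red cell precursors were nearly absent from these marrow libraries. The globin genes Hba-a1, Hbb-bs and Hbb-bt had at most 5 counts in a library, and 9 erythroid genes together gave 2.81 to 6.12 CPM. The labels describe flushing and name no culture or depletion of cells, so it is uncertain which marrow cells these values stand for. Osteoblast genes, mostly the collagen genes Col1a1 and Col1a2, summed to 15934 to 19137 CPM in wild types and 15396 to 16715 CPM in knockouts. Knockouts B and C stood apart by small traces of Alb and Gh, genes of other tissue. Only these libraries held counts of Alb, the liver gene of serum albumin (46 and 36). Counts of Gh, the growth hormone gene of the pituitary, were found only in the wild types (54, 82 and 75) and knockout A (23). Summed lists of such genes did not make the same split. The 10 liver genes summed to 298 to 391 CPM in wild types and to 438, 439 and 359 CPM in knockouts A, B and C. The 10 pituitary and neuron genes summed to 36.0 to 44.6 CPM in wild types, against 29.5, 21.4 and 16.9 CPM. Knockout A thus lay below all wild types there. Because of Alb and Gh, the sterol enzymes and Scd1 are also given below without knockouts B and C. In bulk RNA, fewer cells of a type and less RNA per cell cannot be told apart.

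Most transcripts of the cholesterol pathway were slightly lower in the knockouts and the desaturase gene Scd1 was higher, but no gene of the 29 passed the threshold. The count was 0 of 29 at an adjusted p below 0.05 in edgeR's quasi-likelihood test, where 0.103% of all tested genes were called. The lowest adjusted p was 0.151, for Sqle. At an unadjusted p below 0.05, 14 of the 29 were lower in knockouts and 3 were higher, where 8.22% and 8.35% of all tested genes lay. The same 14 and 3 were the genes whose knockout libraries lay wholly below or above all wild types, where 10.4% of all tested genes lay wholly below and 11.5% wholly above. The median log2 fold change of the 29 was -0.15, against 0.00 for all tested genes, and 23 of the 29 were negative, as were 48.8% of all tested genes. These counts describe the 29 genes, and no test was made of them as a list. Other methods called a few of them. DESeq2 called Cyp51 and Sqle lower, where it called 0.845% of all genes with a count lower. The edgeR test without a filter called Cyp51, Fdft1 and Sqle lower and Scd1 higher, where 1.49% of genes were called lower and 1.71% higher.

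**Figure D1:**
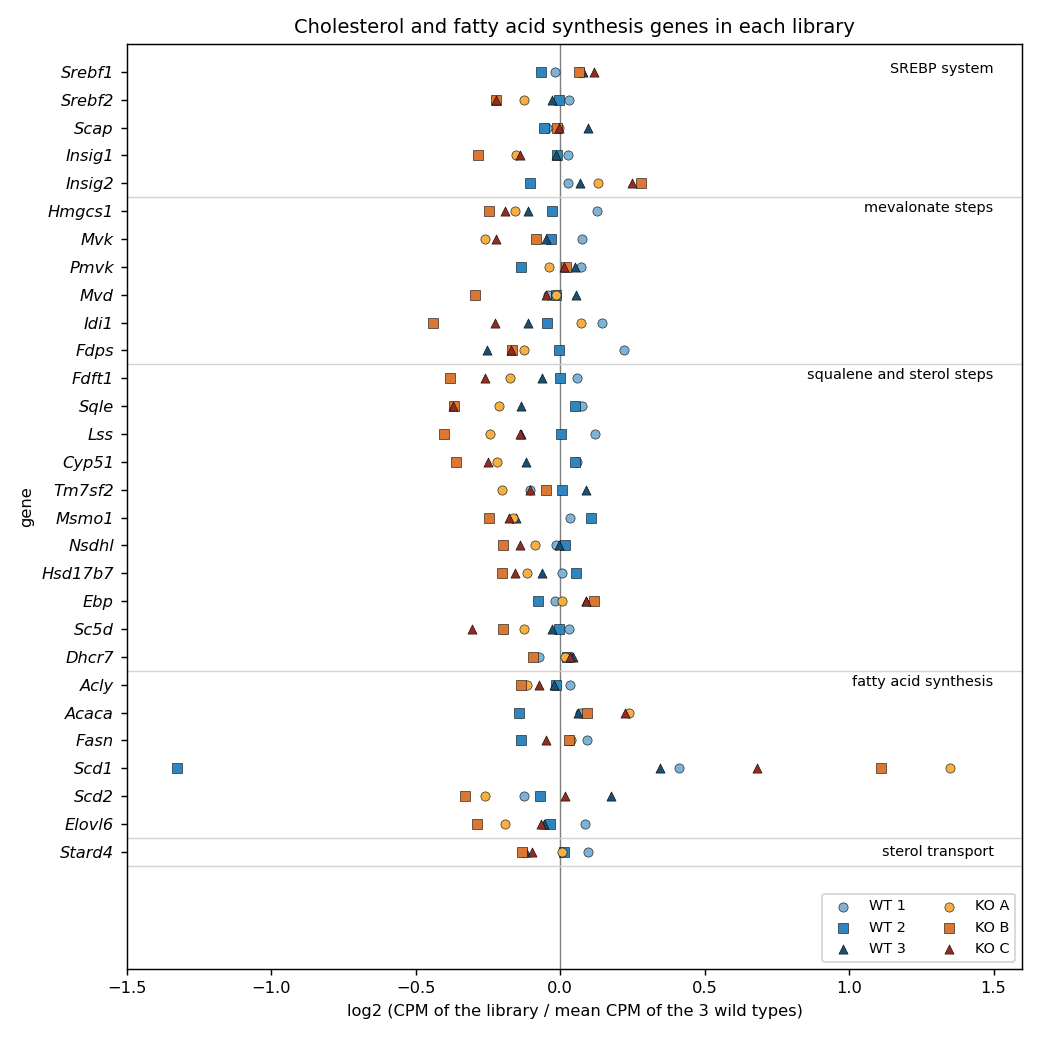
Level of each of the 29 genes in each library, as the log2 ratio of its CPM to the mean of the 3 wild types (x axis), with genes grouped by role (y axis). The 3 knockouts lie left of all wild types for 14 genes, most of them of the squalene and sterol steps, and Scd1 has the widest spread, from 184 CPM in WT 2 to 1178 CPM in knockout A.

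Of the transcription factor genes, Srebf2 lay lower in all knockouts and Srebf1 overlapped between genotypes. Srebf2 encodes SREBP-2, which favours the cholesterol genes, and lies on chromosome 15 at 82147181 to 82205379 (GRCm38). It had 271, 264 and 259.7 CPM in WT 1, 2 and 3, against 243, 227 and 227 CPM in knockouts A, B and C. All knockouts lay below all wild types, at 87.8% of the wild-type level (95% interval 81.2 to 94.8%, edgeR, adjusted p = 0.162). Srebf1, whose SREBP-1 proteins favour the fatty acid genes, had 109, 105 and 116 CPM in wild types, against 115, 115 and 119 CPM in knockouts. Its groups overlapped, with a knockout level at 106% of the wild-type level (97.8 to 115%). Scap, the escort that carries SREBPs to the Golgi for cleavage, had 67.5, 67.0 and 74.5 CPM in wild types, against 69.5, 69.2 and 69.5 CPM in knockouts, which overlapped, at 99.6% of the wild-type level (91.4 to 109%). An exon of Srebf1 shares 109 bases with Rai1 on the other strand, and no source used here says whether counting used strand.

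The Insig genes, which encode the anchors of Scap in the endoplasmic reticulum, had values of opposite direction. Insig1, itself a target of SREBPs, had 78.9, 77.0 and 76.7 CPM in WT 1, 2 and 3, against 69.8, 63.7 and 70.4 CPM in knockouts A, B and C. Insig2 had 29.5, 26.9 and 30.3 CPM in wild types, against 31.7, 35.1 and 34.3 CPM in knockouts. Each knockout was below all wild types for Insig1 and above them for Insig2. Log2 fold changes were -0.19 ± 0.05 (SE) for Insig1 and 0.22 ± 0.07 for Insig2, with adjusted p-values of 0.178 and 0.204 (edgeR).

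A ratio of genes within a library does not depend on how libraries are scaled, and the ratios given here were chosen after the values were seen. By FPKM, the count scaled to exon length and library size, Insig1 stood to Insig2 as 3.01, 3.21 and 2.84 in WT 1, 2 and 3 and as 2.48, 2.04 and 2.30 in the 3 knockouts. Mean ratios were 3.02 ± 0.185 in wild types and 2.27 ± 0.221 in knockouts (SD, n = 3), without overlap, and the exact permutation test (two-sided) returned p = 0.1, the least possible with 3 libraries a group. Srebf2 stood to Srebf1 as 1.95, 1.97 and 1.75 in wild types and as 1.65, 1.55 and 1.49 in knockouts, again without overlap (exact permutation p = 0.1). Both ratios were lower in all 3 knockouts, knockout A included. Ratios of a sterol enzyme to a fatty acid enzyme were lower in every knockout as well. Sqle stood to Fasn as 0.815, 0.938 and 0.735 in wild types and as 0.693, 0.627 and 0.660 in knockouts. Hmgcs1 stood to Acaca as 14.7, 15.2 and 12.5, against 10.7, 11.2 and 10.6. The 5 ratios computed, with Scd1 to Scd2 given below, all had p = 0.1 in the exact permutation test. No adjustment over them could bring one below the threshold. For Insig1 to Insig2 and Hmgcs1 to Acaca the outcome was fixed in advance. The first gene of each pair lay wholly below the wild types and the second wholly above, so these ratios add no evidence.

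**Figure D2:**
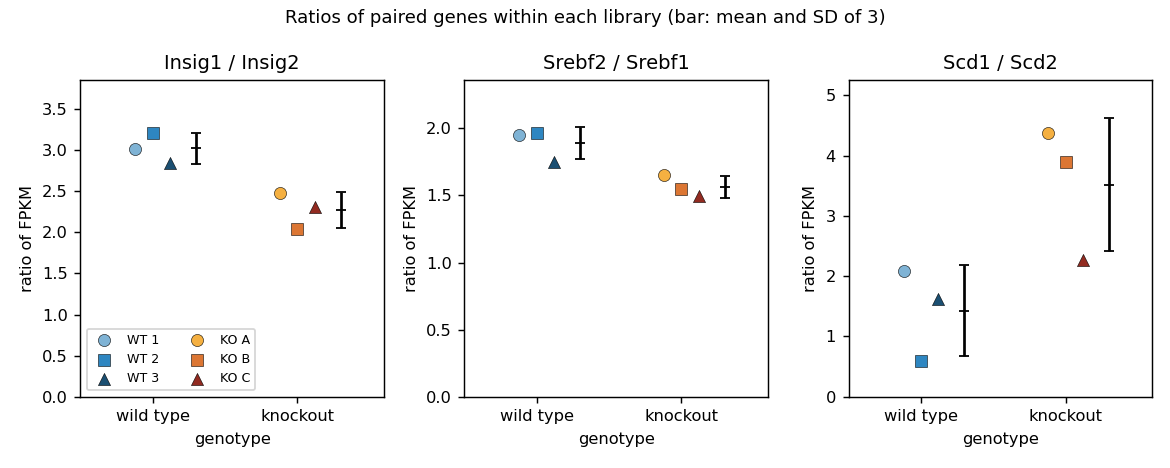
Ratio of FPKM values of 2 genes within each library (y axis, from 0) in wild types and knockouts (x axis), with points for libraries and bars for the mean and SD of 3. Insig1 to Insig2 and Srebf2 to Srebf1 are lower in every knockout than in every wild type, and Scd1 to Scd2 is higher in every knockout, with knockout C at 2.27 near WT 1 at 2.08.

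Promoters of the sterol genes are shown here because these genes lay lower together and SREBPs bind near starts of transcription beside the factor NF-Y. RefSeq promoters on GRCm38.p6, from 250 bases before to 50 after each start, matched 23 of the 29 genes, and Fdft1, Fdps, Scd1, Scd2, Sqle and Stard4 had no entry. The NF-Y letters CCAAT, on either strand, were in a promoter of 20 of the 23 genes (87.0%), against 42.6% of the 11001 tested genes with a promoter entry. The Sp1 letters GGGCGG were in 19 of the 23 (82.6%), against 67.2%. The sterol element letters TCACNCCAC were in Hmgcs1 alone (4.35% of the 23, against 1.38%). A longer form of these letters was in 0 of the 23 (0.0545% of tested genes). Other forms of the sterol element were not searched, so a gene without these letters may still hold one. Genes with several starts had more than 1 window searched. For such a gene, the window shown is the one with most matches to CCAAT and TCACNCCAC. The 250 bases before the start follow for 2 genes of the pathway that were lower, Hmgcs1 and Cyp51, and for the Insig pair. They read 5′ to 3′ along the gene's strand, with CCAAT or its reverse complement ATTGG and the letters TCACNCCAC in capitals.
Hmgcs1 (chr13:119690101-119690350, plus strand): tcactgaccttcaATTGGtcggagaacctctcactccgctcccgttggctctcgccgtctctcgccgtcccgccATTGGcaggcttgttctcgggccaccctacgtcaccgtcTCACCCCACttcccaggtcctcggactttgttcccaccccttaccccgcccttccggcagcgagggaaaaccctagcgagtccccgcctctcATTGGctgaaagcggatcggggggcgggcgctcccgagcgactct
Cyp51 (chr5:4104698-4104947, minus strand): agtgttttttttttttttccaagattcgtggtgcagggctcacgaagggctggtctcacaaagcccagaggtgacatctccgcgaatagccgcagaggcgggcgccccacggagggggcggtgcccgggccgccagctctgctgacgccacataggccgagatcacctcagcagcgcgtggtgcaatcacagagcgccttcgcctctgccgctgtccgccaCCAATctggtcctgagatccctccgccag
Insig1 (chr5:28071162-28071411, plus strand): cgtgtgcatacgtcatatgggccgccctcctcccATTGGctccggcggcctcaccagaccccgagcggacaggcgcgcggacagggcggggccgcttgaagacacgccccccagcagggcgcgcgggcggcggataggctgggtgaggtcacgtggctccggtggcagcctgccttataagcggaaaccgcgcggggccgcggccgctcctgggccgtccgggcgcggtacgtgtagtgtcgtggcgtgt
Insig2 (chr1:121332590-121332839, minus strand): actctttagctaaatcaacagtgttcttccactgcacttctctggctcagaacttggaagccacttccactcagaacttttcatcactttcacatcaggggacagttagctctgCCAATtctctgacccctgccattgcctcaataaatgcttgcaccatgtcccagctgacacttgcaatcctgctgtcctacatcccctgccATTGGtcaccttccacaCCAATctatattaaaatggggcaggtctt

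In the Hmgcs1 window the sterol element begins 137 bases before the start, between CCAAT matches that begin 176 and 45 bases before it. Cyp51 has 1 CCAAT, 29 bases before its start. Starts here are those of RefSeq and need not match the gene positions used elsewhere in this report. By those positions Cyp51 begins at 4104746 on the minus strand and Insig1 at 28071363. Both printed windows thus reach into the gene, and the CCAAT of Cyp51 lies inside it. Insig1, with lower values in knockouts, has 1 match 216 bases before its start, and Insig2, with higher values, has 3 in this window and 0 in the windows of its other two starts. The Insig2 window was the one with most matches, so CCAAT at this higher gene depends on that choice. Which start is used in marrow was not tested. Acaca, also with higher values, had 0 CCAAT matches in its window. These counts describe the letters and no binding.

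All 6 mevalonate genes had negative log2 fold changes (48.8% of all tested genes), and 2 of them lay wholly below the wild types (10.4% of all tested genes). Hmgcs1, the synthase that makes HMG-CoA, had 131, 117 and 111 CPM in WT 1, 2 and 3, against 107, 101 and 105 CPM in knockouts A, B and C. Mvk, mevalonate kinase, had 34.5, 32.0 and 31.7 CPM in wild types, against 27.3, 30.9 and 28.0 CPM in knockouts. Knockout A was close to the lowest wild type for Hmgcs1 and furthest from it for Mvk. Knockouts stood at 87.3% (95% interval 78.6 to 97.0%) and 87.9% (78.8 to 98.0%) of the wild-type levels, with adjusted p-values of 0.219 and 0.243 (edgeR).

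The other mevalonate genes overlapped between genotypes. Mvd, the decarboxylase that makes isopentenyl diphosphate, had 25.9, 26.4 and 27.7 CPM in wild types, against 26.4, 21.7 and 25.8 CPM in knockouts, so that knockout B alone lay clearly lower. Pmvk, phosphomevalonate kinase, had 22.7, 19.6 and 22.3 CPM in wild types, against 20.998, 21.8 and 21.7 CPM in knockouts, with means of 21.5 ± 1.66 and 21.5 ± 0.456 CPM (SD, n = 3). Idi1, the isomerase of isopentenyl diphosphate, was at 8.80 ± 0.821 and 7.76 ± 1.40 CPM. Fdps, farnesyl diphosphate synthase, had 102 to 122 counts per wild-type library and 88 to 107 per knockout library, and its level of 1.18 FPKM over all libraries was the lowest of the 29. Its count is uncertain, since a blastn search of GENCODE M21 transcripts found 5 other genes with a stretch of at least 200 bases at 95% identity or more. One of these, Gm3571, had up to 90 counts in a library.

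The enzymes from squalene to cholesterol held most of the lower genes, with 8 of 11 wholly below the wild types, where 10.4% of all tested genes lay. Sqle, the squalene epoxidase that adds the first oxygen of the sterol route, had the largest difference among the sterol enzymes. It had 113, 111 and 97.6 CPM in WT 1, 2 and 3, against 92.5, 83.2 and 83.0 CPM in knockouts A, B and C. Knockouts stood at 80.5% of the wild-type level (95% interval 71.8 to 90.1%), or -0.31 ± 0.07 (SE) in log2 fold change, with adjusted p = 0.151 in edgeR. Cyp51, which removes a methyl group from lanosterol, lies on chromosome 5 at 4081145 to 4104746 (GRCm38). It had 121, 120.4 and 107 CPM in wild types, against 99.96, 90.7 and 97.8 CPM in knockouts. Knockouts stood at 82.7% of the wild-type level (74.8 to 91.6%, adjusted p = 0.156), and 166 of its 4415 exon bases are shared with Akap9 on the other strand. For both genes WT 3 was the wild type nearest to the knockouts. Without WT 3 both passed the threshold, with adjusted p-values of 0.0487 for Sqle and 0.0498 for Cyp51 (edgeR), where 0.55% of all tested genes were called lower.

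Fdft1, squalene synthase, had 43.0, 41.2 and 39.5 CPM in WT 1, 2 and 3, against 36.6, 31.7 and 34.5 CPM in knockouts A, B and C. The groups did not overlap, and knockouts stood at 83.1% of the wild-type level (95% interval 74.5 to 92.6%, adjusted p = 0.161, edgeR). A stretch of 774 of its exon bases is shared with Ctsb on the other strand, a cathepsin gene with 7825 to 8606 CPM in wild types and 9750 to 10256 CPM in knockouts. Ctsb thus had the opposite direction, and whether its reads were counted for or against Fdft1 was not tested. Lss, which cyclises squalene epoxide to lanosterol, had 46.4, 42.7 and 38.8 CPM in wild types, against 36.1, 32.3 and 38.8 CPM in knockouts. WT 3, at 38.82, and knockout C, at 38.78, nearly met.

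Later enzymes of the route also lay lower in most cases. Msmo1, a sterol methyl oxidase, had 132, 139 and 116 CPM in WT 1, 2 and 3, against 115, 109 and 114 CPM in knockouts A, B and C. Nsdhl, the sterol dehydrogenase that acts with it, had 42.1, 43.0 and 42.4 CPM in wild types, against 40.0, 37.0 and 38.6 CPM in knockouts. Hsd17b7, the ketosteroid reductase of the same complex, had 49.0, 50.7 and 46.7 CPM in wild types, against 45.1, 42.4 and 43.7 CPM in knockouts. These 3 genes of C4 demethylation were below all wild types in each knockout, with levels of 87.4%, 90.7% and 89.7% of the wild type and adjusted p-values of 0.235, 0.249 and 0.229 (edgeR). For Msmo1, WT 3, at 115.7 CPM, and knockout A, at 115.1 CPM, nearly met. Sc5d, the desaturase of a late step, had 59.0, 57.5 and 56.6 CPM in wild types, against 53.0, 50.3 and 46.7 CPM in knockouts. Its groups did not overlap, and knockouts stood at 86.7% of the wild-type level (95% interval 78.9 to 95.1%, adjusted p = 0.183).

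The remaining 3 enzymes of these steps did not separate by genotype. Ebp, the sterol isomerase, was the 1 sterol enzyme with a positive log2 fold change, with 58.4, 56.0 and 62.9 CPM in wild types, against 59.4, 64.2 and 62.9 CPM in knockouts. Dhcr7, the reductase that makes cholesterol in the last step of the pathway, was at 55.3 ± 2.38 CPM in wild types and 54.8 ± 2.58 CPM in knockouts (SD, n = 3), or 99.1% of the wild-type level (95% interval 90.5 to 109%). Tm7sf2, a sterol reductase, was at 14.2 ± 0.957 and 13.1 ± 0.703 CPM. It shares 532 exon bases with Vps51 on the same strand.

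Added up, the 17 enzymes from Hmgcs1 to Dhcr7 gave 959, 941 and 885 CPM in WT 1, 2 and 3, against 842, 793 and 822 CPM in knockouts A, B and C. All knockouts lay below all wild types, at a mean of 819 ± 24.8 against 928 ± 39.0 CPM (SD, n = 3). By library, the median enzyme stood at 0.06, -0.00 and -0.06 in the wild types and at -0.13, -0.20 and -0.17 in knockouts A, B and C, on the log2 scale relative to the wild-type mean. WT 1 was the highest library for 10 of the 17 enzymes and knockout B the lowest for 10. Knockout B was the lowest of the 6 libraries for 2707 of 15452 genes with a count in each library. The median log2 fold change of the 17 was -0.18 over all libraries. It was -0.13 for knockout A alone against the wild types, where 14 of the 17 were negative, -0.12 with the set of libraries (knockouts B and C against the rest) as a term, and -0.18 for knockouts B and C without A. Each of the 29 genes had an adjusted p above the threshold in these 3 fits (edgeR).

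**Figure D3:**
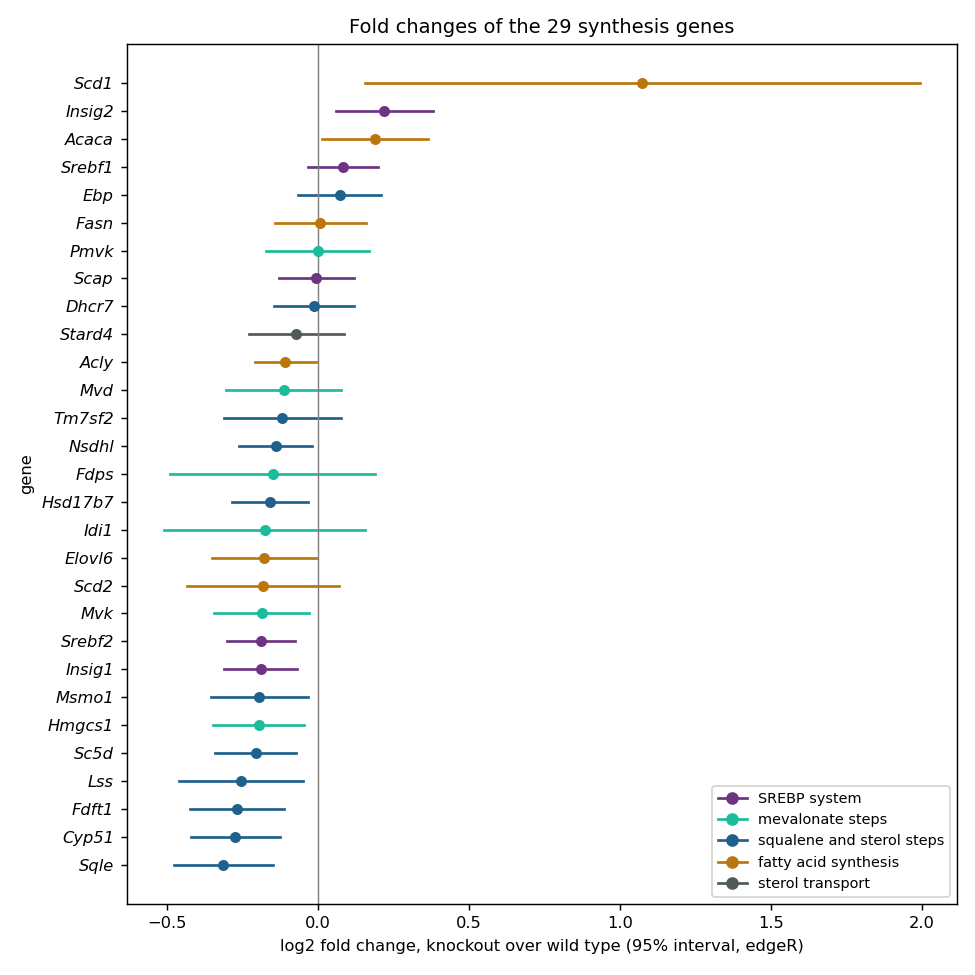
Log2 fold change of knockout over wild type with its 95% interval (x axis, edgeR) for each of the 29 genes (y axis), coloured by role. Sterol enzymes lie mostly between -0.31 and -0.11, and Scd1 at 1.07 has an interval from 0.16 to 1.99.

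Fatty acid synthesis genes did not share a direction, with 3 positive and 3 negative log2 fold changes among 6. Scd1, the stearoyl-CoA desaturase that introduces the double bond of oleate, was the most abundant of the 29, at 146 FPKM over all libraries. It lies on the minus strand of chromosome 19 at 44394455 to 44407879 (GRCm38). It had 614, 184 and 588 CPM in WT 1, 2 and 3, against 1178, 998 and 742 CPM in knockouts A, B and C. All knockouts lay above all wild types, but WT 2 was far below the other two. The fold change was 2.11 (log2 1.07 ± 0.40 SE, 95% interval 0.16 to 1.99, adjusted p = 0.246, edgeR). Without WT 2 the log2 fold change was 0.69 (adjusted p = 0.162), and for knockout A alone against the wild types it was 1.35.

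The summed list of marrow adipocyte genes had the same low library, WT 2, and the same direction as Scd1. WT 2 was the lowest library for 4108 of 15452 genes with a count in each library, more than any other library. It was also the highest for 3802 of them. The 14 genes of the adipocyte list summed to 1518, 870 and 1304 CPM in WT 1, 2 and 3 and to 2166, 2282 and 1835 CPM in knockouts A, B and C, so the groups did not overlap and WT 2 was again the lowest. Of its 14 genes 12 could be tested, and all 12 had positive log2 fold changes, with a median of 0.88 and 0 past the threshold (0.103% of all tested genes passed). Of these, 11 lay wholly above the wild types, where 11.5% of all tested genes lay, and Plin4 overlapped. Most of the summed CPM came from Lpl and Cd36. Lpl had 625, 280 and 528 CPM in WT 1, 2 and 3, against 910, 1021 and 813 CPM in knockouts A, B and C. Cd36 had 353, 314 and 299 CPM in wild types, against 455, 455 and 416 CPM in knockouts, so WT 3 was its lowest library. Adipoq, which encodes adiponectin, had 880, 272 and 1169 counts in the wild-type libraries, against 2481, 1886 and 1638 in knockouts. Lep, leptin, had at most 5 counts in a library and Pck1 at most 1. The part of adipocyte content in the Scd1 result was not tested.

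**Figure D4:**
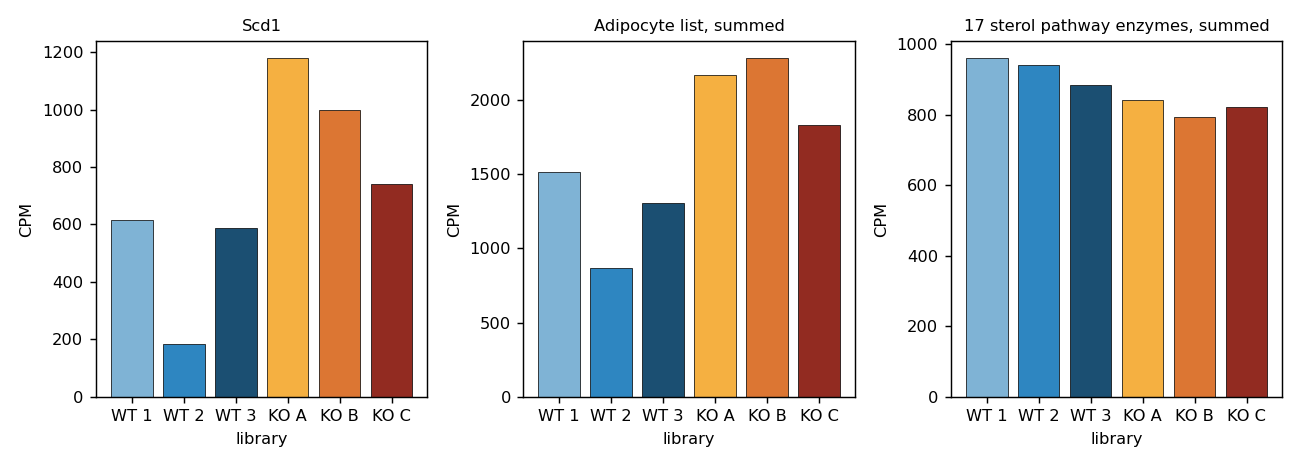
CPM in each library (x axis) of Scd1, of the 14 adipocyte genes summed and of the 17 sterol pathway enzymes summed (y axes, each from 0). WT 2 is lowest for Scd1 and for the adipocyte genes, at 184 and 870 CPM, while the sterol enzymes are between 793 and 959 CPM.

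Scd2, another stearoyl-CoA desaturase gene, lies on chromosome 19 as Scd1 does, and its values overlapped between genotypes. It had 329.9, 343 and 407 CPM in WT 1, 2 and 3, against 300.4, 287 and 365 CPM in knockouts A, B and C. Knockouts stood at 88.1% of the wild-type level (95% interval 74.0 to 105%). By FPKM, Scd1 stood to Scd2 as 2.08, 0.600 and 1.61 in wild types and as 4.38, 3.89 and 2.27 in knockouts, so that WT 2 was the 1 library in which Scd2 was the more abundant. The Scd1 and Scd2 transcripts share a stretch of 623 bases at 95.5% identity, so reads there can be hard to assign.

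Acly, ATP citrate lyase, which makes cytosolic acetyl-CoA for both routes, had 216, 209 and 208 CPM in WT 1, 2 and 3, against 195, 192 and 200.5 CPM in knockouts A, B and C. Its knockouts lay below all wild types by a small margin, at 92.8% of the wild-type level (95% interval 86.5 to 99.5%, adjusted p = 0.273, edgeR). Acaca, the acetyl-CoA carboxylase that commits carbon to fatty acids, had 33.1, 28.6 and 32.9 CPM in wild types, against 37.2, 33.6 and 36.8 CPM in knockouts. It lay the other way, at 114% of the wild-type level (101 to 129%, adjusted p = 0.274). A predicted gene, Gm5182, matches 6118 bases of the Acaca transcript at 99.2% identity and had at most 161 counts in a library. Fasn, fatty acid synthase, had 274, 234 and 262 CPM in wild types, against 263, 262 and 248 CPM in knockouts, with overlap, and a knockout level of 101% of the wild-type level (90.5 to 112%). Elovl6, which lengthens palmitate to stearate, had 31.3, 28.7 and 28.3 CPM in wild types, against 25.8, 24.1 and 28.1 CPM in knockouts. Knockout C nearly met WT 3 there, and knockouts stood at 88.4% of the wild-type level (78.4 to 99.7%, adjusted p = 0.289).

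Stard4, a carrier of cholesterol between membranes and a target of SREBP-2, had 60.3, 56.9 and 51.9 CPM in WT 1, 2 and 3, against 56.6, 51.4 and 52.7 CPM in knockouts A, B and C. Its groups overlapped, with a knockout level at 95.1% of the wild-type level (95% interval 85.3 to 106%).

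Levels per exon length ordered the genes differently from their differences. After Scd1, the highest FPKM over all libraries were 61.9 for Scd2, 38.5 for Acly and 34.6 for Srebf2. The most abundant sterol enzymes were Ebp at 26.2, Hmgcs1 at 24.3 and Cyp51 at 24.0 FPKM. Among these, Ebp overlapped between genotypes while Hmgcs1 and Cyp51 did not.

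Of the other genes of the pathway, 0 of 59 in 4 lists passed the threshold (0.103% of all tested genes passed). Further enzymes of sterol and isoprenoid synthesis had 7 negative and 5 positive log2 fold changes among 12, with a median of -0.01. Fntb, a subunit of the protein farnesyltransferase, was at 89.3% of the wild-type level (adjusted p = 0.252, edgeR). Coq2, of ubiquinone synthesis, was at 111% (adjusted p = 0.306), and Nus1, of dolichol synthesis, at 100.3%. Partners that process or degrade SREBPs and Insigs overlapped between genotypes in all 8 cases, where only 21.9% of all tested genes did not overlap. Log2 fold changes were -0.12 for Erlin1, 0.07 for Rnf139 and -0.03 for Erlin2.

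Genes of sterol uptake, storage and efflux had positive log2 fold changes in 12 of 15 cases, as had 7924 of all 15478 tested genes. Their median log2 fold change was 0.09. Of the 15, 3 lay wholly above the wild types and 1 wholly below, where 11.5% and 10.4% of all tested genes lay. Abcg1, an exporter of cholesterol and a target of the liver X receptors, had 28.3, 22.7 and 39.9 CPM in WT 1, 2 and 3, against 51.5, 58.0 and 49.4 CPM in knockouts A, B and C. It did not overlap, at a fold change of 1.75 (adjusted p = 0.146, edgeR). Nr1h3, the gene of liver X receptor alpha, had 17.4, 10.5 and 16.8 CPM in wild types, against 20.4, 24.0 and 19.4 CPM in knockouts, and WT 2 was again the lowest library (fold change 1.43, adjusted p = 0.234). Lipa, the lysosomal lipase that frees cholesterol from its esters, had 599.7, 579 and 583 CPM in wild types, against 684, 679 and 661 CPM in knockouts (fold change 1.15, adjusted p = 0.159). Npc2, a carrier of sterol in lysosomes, overlapped, with a fold change of 1.12. Summed CPM of macrophage and marrow stromal genes was also higher in all knockouts. Macrophage genes summed to 7549 to 7859 CPM in wild types and 7893 to 8756 CPM in knockouts. By FPKM the macrophage sums overlapped, with 4624 in knockout C and 4641 in WT 1. Of the 11 genes, 4 had negative log2 fold changes, Cd163 and Vsig4 among them (adjusted p = 0.0486 and 0.0141, edgeR). Wholly above the wild types lay 2 of the 11 and wholly below 2, where 11.5% and 10.4% of all tested genes lay. The 10 stromal genes summed to 2362 to 4572 and 5563 to 6553 CPM. Most of each sum was Cxcl12, at 2696, 1327 and 3168 CPM in WT 1, 2 and 3 and 4021, 4897 and 4702 CPM in knockouts A, B and C. Of the 10 stromal genes, 5 lay wholly above the wild types (11.5% of all tested genes). The threshold was passed by 0 of them (0.103% of all tested genes). The part of these cell types in the values of either pathway was not tested.

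Other genes of fatty acid and lipid assembly had 13 positive and 11 negative log2 fold changes among 24. Fads2, a desaturase of polyunsaturated fatty acids that SREBPs also activate, had 82.1, 76.3 and 83.3 CPM in wild types, against 70.7, 59.9 and 67.3 CPM in knockouts (81.9% of the wild-type level, adjusted p = 0.159, edgeR). Mlxipl, which encodes the carbohydrate response factor ChREBP, had 1.45, 0.643 and 1.77 CPM in wild types, against 3.73, 3.56 and 2.46 CPM in knockouts, a fold change of 2.53 (adjusted p = 0.161). Acsl1, an acyl-CoA synthetase abundant in adipocytes, had 80.6, 55.8 and 80.6 CPM in wild types, against 101, 102 and 89.0 CPM in knockouts (fold change 1.35, adjusted p = 0.202). For Mlxipl and Acsl1, as for Scd1, WT 2 was the lowest library, as for 4108 of 15452 genes with a count in each library. The genes of highest FPKM in this list, Tecr and Elovl1, which serve fatty acid elongation, were at 95.4% and 103% of the wild-type level.

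Genes of dividing cells summed to 570 to 725 CPM in wild types and 564 to 598 CPM in knockouts, which overlapped. The ratio of the summed means was 0.889, close to the 0.882 of the summed sterol enzymes. Of the 10 genes, 8 had negative log2 fold changes (48.8% of all tested genes), with a median of -0.16, and 2 lay wholly below the wild types (10.4% of all tested genes). Their part in the lower sterol enzyme values was not tested.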

How the data were processed

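The members and gene lists were chosen with earlier results of these data known. The authors deposited 1 table with raw counts and FPKM values of all 6 libraries. Its gene columns have the layout of featureCounts, per the file headers. The deposited counts are whole numbers, and in 100% of nonzero cases the deposited FPKM equals count over exon length and scaled library size (relative tolerance 1e-06). The submitters' processing notes name the builds GRCm38 and mm10. No source used here gives the aligner or strand setting. Per the labels' protocols, 1.3 µg of total RNA entered each library. No per-sample column was left unused.

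Counts were tested with edgeR 4.0.16 in R 4.3.3 (filterByExpr, TMM, glmQLFit and glmQLFTest, two-sided, Benjamini-Hochberg over 15478 genes, threshold 0.05), after a test on simulated data. CPM values are TMM-scaled, fold changes are knockout over wild type, and intervals are 95%. A count of 0 allows up to 3 counts. Replicates are different mice, per the series' design text. Protein sequences were not used here. Alternatives used limma 3.58.1 on log2(FPKM + 1) and log2(FPKM + 0.1), DESeq2 1.42.0, other scalings and filters, and left-out libraries. Copies were searched with blastn 2.17.0. All 29 gene positions equal those of GENCODE M21.

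All 29 genes are named. From each list of other pathway genes, the rule named those past the threshold or, where there was none, the 3 of smallest p and the 2 of highest FPKM. The marker genes Adipoq, Lep, Pck1, Lpl, Cd36, Plin4, Cxcl12, Cd163, Vsig4, Col1a1, Col1a2 and the globins, and the genes that overlap or copy a member, were named after their values were seen. The values of 2 genes that the rule named are not reported here.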

Additional observations from a re-analysis of the deposited data

How the results depend on the processing

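Across the alternatives the direction of most of the 29 genes held, but calls depended on the method. No paired analysis was possible because wild types carry numbers and knockouts carry letters. The 29 genes gave 0 calls in edgeR (17 at an unadjusted p below 0.05), 4 without a filter and 2 in DESeq2, while all tested genes gave 16, 970 and 506. With limma on log2(FPKM + 1) and log2(FPKM + 0.1), 10 and 2 of all tested genes were called and 0 of the 29 (15 and 15 at an unadjusted p below 0.05). Leaving out 1 library gave 0 to 172 calls over all genes and 0 to 2 among the 29; the 172 and the 2 were without WT 3, and the 0 over all genes were without knockout B or C. Knockout A alone against the wild types, and the set of libraries as a term, gave 0 calls over all genes (668 and 894 at an unadjusted p below 0.05) and 0 among the 29 (1 and 3). These last fits rest on knockout A. The median log2 fold change of the 29 stayed between -0.16 and -0.11. Sign changes were limited to 6 genes, all with overlapping genotypes, and the cause was not tested. Leaving out 1 library moved Pmvk between -0.065 and 0.030, Fasn between -0.055 and 0.051, Scap between -0.034 and 0.045 and Dhcr7 between -0.053 and 0.025. With upper-quartile scaling Pmvk was at 0.0036. For knockout A alone and with the set as a term, Idi1 was at 0.072 and 0.076, Dhcr7 at 0.013 and 0.016 and Stard4 at 0.0028 and 0.0060.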

Other observations

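Of the 5 near-identical copies of Fdps, 2 carried counts of the same order as the gene, and the others, Gm43738, Gm8163 and Gm7979, had at most 0, 1 and 6 counts in a library. Gm3571, whose transcript matches 1062 bases of Fdps at 98.9% identity, was at 71, 90 and 65 counts in the wild types, against 59, 46 and 43 in the knockouts, without overlap (adjusted p = 0.244, edgeR). Gm5873, at 96.7% identity over 1066 bases, was at 35, 50 and 61 counts, against 35, 37 and 40. Fdps itself was at 122, 122 and 102 counts, against 107, 88 and 93.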
